A study of Homo sapiens with 6 samples.

Results

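The 45 genes described here carry out or control chromosome duplication: they load and activate the replicative helicase, copy DNA at the fork, make its precursors, repackage it and switch these steps on. They were chosen by name, as genes of the G1/S transition and of replication, and matched by NCBI Gene ID. All 45 were found among the 16623 genes of the deposited tables, and all 45 reached 1 FPKM (fragments per kilobase of transcript, corrected for library depth) in every library. MDA-MB-231, a triple-negative breast cancer cell line, was grown as adherent culture in serum-containing medium and exposed to the HDAC inhibitor PCI-24781 at 100 nM or 200 nM, or to its solvent DMSO, for 24 h or 48 h. The labels name no genetic change. Each of the 6 combinations of treatment and time is 1 RNA-seq library, so no difference has a replicate check and no test was run, and every comparison is between libraries rather than between conditions.

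In G1, the origin recognition complex, CDC6 and CDT1 load rings of MCM2 to MCM7 onto DNA. In S phase, CDC45 and the GINS complex turn these rings into active helicases, and the PCNA clamp ties polymerases to the template. Many genes of this programme are switched on by activator E2F factors, which the retinoblastoma protein holds back until cyclin-dependent kinases release them. HDAC inhibitors cause histones to gain acetyl groups and, in many tumour lines, slow the cell cycle. In RNA from a whole culture, fewer cells in S phase and less RNA per cell cannot be told apart.

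The cell line's label was compared with its markers. VIM was between 1629 and 2053 FPKM, CD44 between 154 and 219 FPKM and EGFR between 35.1 and 49.8 FPKM, whereas ESR1 and PGR did not exceed 0.04 FPKM. CDH1 stayed at or below 0.39 FPKM, EPCAM at or below 4.7 FPKM and ERBB2 between 13.2 and 21.4 FPKM. Of the markers of other cell types, CD3E reached 0.04 FPKM, COL3A1 0.33 FPKM, PTPRC 1.01 FPKM and PECAM1 2.33 FPKM. The files give no read counts. From the spacing of low values, the depth was inferred to be between 15700000 and 17800000 fragments per library, which placed at least 155 fragments on each of the 44 replication genes with a known transcript length.

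One library needs naming before the results. DMSO 24 h stood apart from DMSO 48 h: of 11490 genes with at least 1 FPKM in either, 975 were at least 1.5-fold higher and 223 at least 1.5-fold lower at 48 h. At 48 h, the doses also differed from DMSO in opposite ways, with 58 genes higher and 202 lower at 100 nM against 178 higher and 54 lower at 200 nM. The labels are used as given. Whether time in culture, an exchange of labels or a property of DMSO 24 h lies behind the DMSO difference cannot be told apart with 1 library per condition. The comparisons at 48 h do not use DMSO 24 h, and what lies behind their opposite directions was not tested. Each main result is therefore also given against the other DMSO library, and the dose step within 24 h is given without any DMSO library.

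TK1 alone of the 45 genes was not below DMSO 24 h at 200 nM 24 h. The sequences below show the stretch before 3 of the most lowered genes and before TK1, with matches to a motif of the E2F family. They are the 120 bases before an annotated start, from RefSeq on GRCh38.p14, written 5′ to 3′ on the strand of the gene, and capitals mark the 8-base E2F matches searched for: TTTCCCGC, TTTGGCGC, TTTCGCGC or TTTGCCGC on either strand. The TYMS stretch lies at chr18:657533-657652 (plus strand), MCM6 at chr2:135876444-135876563, GINS2 at chr16:85688955-85689074 and TK1 at chr17:78187053-78187172 (all minus strand).
TYMS: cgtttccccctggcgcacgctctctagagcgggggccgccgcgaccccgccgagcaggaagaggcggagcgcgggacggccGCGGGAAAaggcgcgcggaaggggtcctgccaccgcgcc
MCM6: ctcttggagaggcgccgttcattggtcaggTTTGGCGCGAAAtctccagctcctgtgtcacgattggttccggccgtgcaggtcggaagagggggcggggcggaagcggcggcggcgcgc
GINS2: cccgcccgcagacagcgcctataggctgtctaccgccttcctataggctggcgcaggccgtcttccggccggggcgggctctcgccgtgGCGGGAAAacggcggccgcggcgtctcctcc
TK1: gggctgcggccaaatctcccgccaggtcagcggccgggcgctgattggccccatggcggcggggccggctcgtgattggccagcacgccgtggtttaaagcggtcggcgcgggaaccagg
TYMS and GINS2 had 1 match each, in the same letters, with the last letter 32 and 24 bases before the start. MCM6 had 4 matches in the 250 bases searched, which are 2 copies of an overlapping pair, and the printed stretch holds the pair nearest to the start. TK1, with 2 annotated starts, had no match before either, and the downstream start is the one shown. CDC45, the next most lowered gene with a promoter sequence (-0.94), had no match before any of its 3 starts and is not printed. The printed genes thus do not stand for the set. Of its genes with a promoter sequence, 9 of 17 lowered genes and 7 of 22 others had a match. No match says only that these letters are not in the window.

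At 24 h, the replication genes were lower with dose. At 200 nM, 44 of 45 were below DMSO, and 22 were at least 1.5-fold lower, including TYMS, CCNE2, MCM5, MCM6, CDC45, PCNA, RRM1 and RRM2, while 0 were 1.5-fold higher. Over all 11660 genes with at least 1 FPKM in either library, 7.58% were at least 1.5-fold lower, 12.5% at least 1.5-fold higher and 48.6% below DMSO by any amount. At least 2-fold lower were 4 of 45 (TYMS, CCNE2, MCM5 and MCM6), against 1.48% of all genes, and 0 were 2-fold higher, against 4.47%. The median log2 fold change, computed from FPKM + 1, was -0.57 for the 45 genes and 0.01 for all genes. At 100 nM, 41 of 45 were below DMSO, against 48.1% of all 11475 genes. TYMS alone of the 45 was at least 1.5-fold lower and 0 were higher, against 1.25% and 5.54% of all genes, and the median was -0.12. The order DMSO above 100 nM above 200 nM held for 40 of 45 genes (88.9%) and for 30.4% of all 11893 genes with at least 1 FPKM in any library. For 22 of 45 genes, 200 nM 24 h was the lowest of the 6 libraries, against 23.2% of all genes. The 5 genes without the dose order were E2F2, GMNN, PRIM1, RFC4 and TK1. The 45 genes together took 0.444% of all FPKM with DMSO, 0.383% with the low dose and 0.286% with the high dose. In DMSO 48 h the share was 0.337%, below that of 100 nM 24 h. The dose order was not counted with DMSO 48 h in place of DMSO 24 h. At 100 nM 24 h, 37 of 45 genes were above DMSO 48 h, as were 6087 of all 11556 genes.

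**Figure D1:**
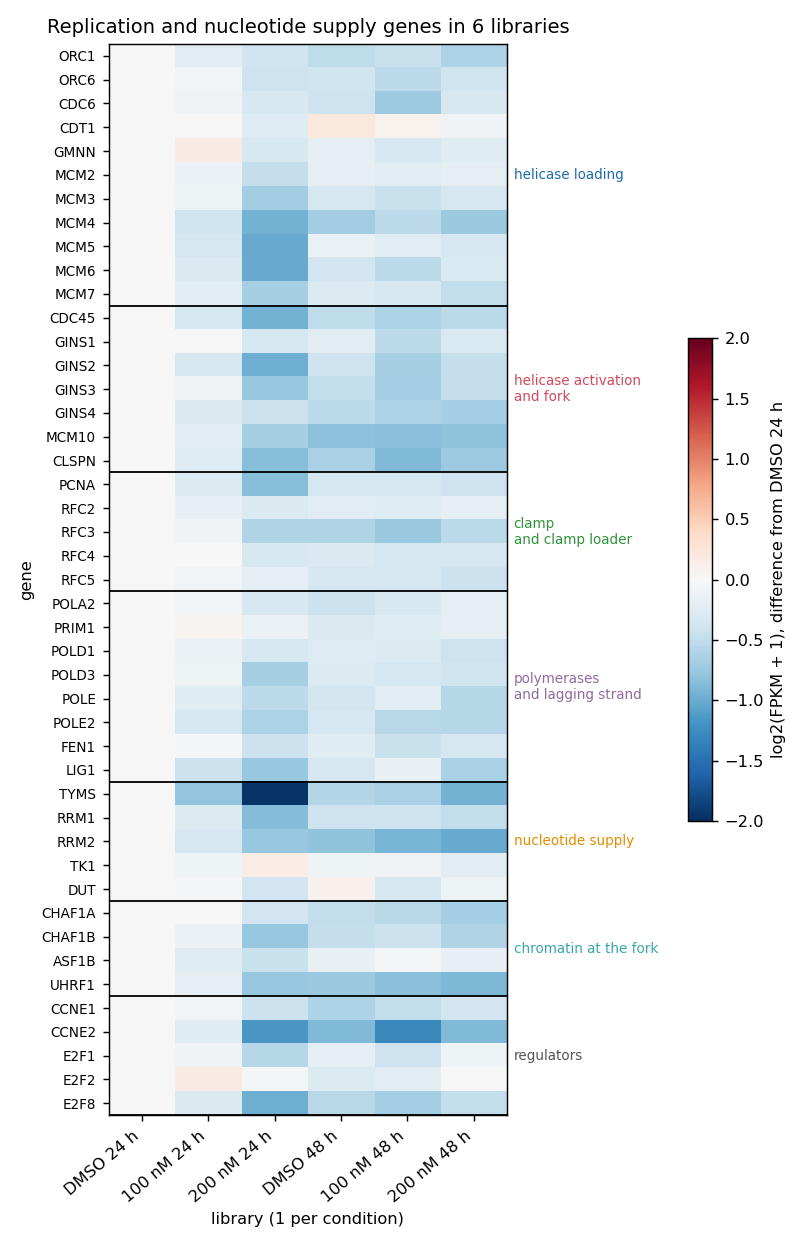
Heat map of the 45 genes (rows, grouped by role) in the 6 libraries (columns, 1 per condition), with colour for the difference in log2(FPKM + 1) from DMSO 24 h, which is therefore 0 in the first column. The 200 nM 24 h column is the darkest for TYMS at -1.97. The median gene of the 45 spans 0.19 over the 3 columns of 48 h against 0.57 over those of 24 h. The span over all genes was not computed.

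The dose step within 24 h does not use the DMSO 24 h library. From 100 nM to 200 nM, 44 of 45 genes were lower against 50.6% of all genes, the median log2 fold change was -0.39 and 12 genes were at least 1.5-fold lower, against 2.14% of all genes and an all-gene median of 0.00. TYMS had the largest step among the 45 (-1.18), followed by CCNE2 (-0.93), MCM6 (-0.71), GINS3 and E2F8 (both -0.68). Set against DMSO 48 h, the 200 nM 24 h library was lower for 33 of 45 genes, against 48.8% of all genes, but the median was -0.20. Of the 45, 3 were then at least 1.5-fold lower, TYMS (-1.38), MCM5 (-0.87) and MCM6 (-0.62), against 5.24% of all genes, and 0 were higher, against 4.47%. The 100 nM 24 h library was below DMSO 48 h for 8 of 45 genes, against 47.0% of all genes, with a median of 0.23, and 0 were 1.5-fold lower and 2 higher, against 2.77% and 0.9% of all genes. The 24 h difference thus rested on which DMSO library it was measured against, in size at 200 nM and in direction at 100 nM. TYMS, MCM5 and MCM6 were 1.5-fold lower at 200 nM 24 h against either. Against DMSO 48 h, however, these 3 of 45 (6.67%) were close to the share of all genes (5.24%).

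**Figure D2:**
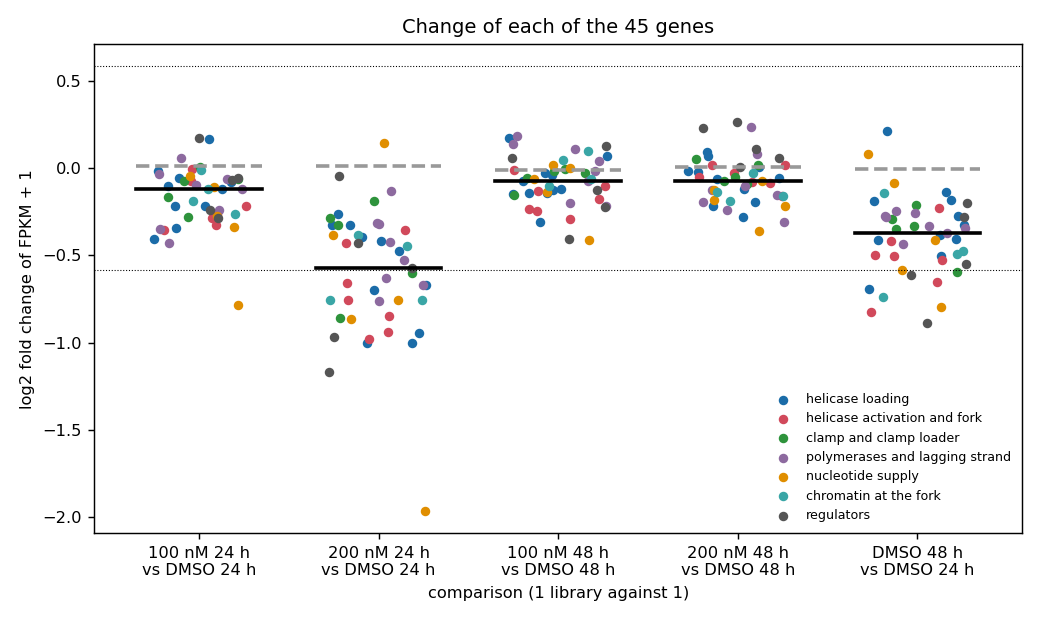
Log2 fold change of FPKM + 1 (vertical axis) for each of the 45 genes, 1 point per gene coloured by role, in 5 comparisons of 1 library with 1 library. Solid bars are medians of the 45 genes, dashed bars medians of all genes, and dotted lines 1.5-fold, and the solid bar is lowest at 200 nM 24 h (-0.57) and second lowest for DMSO 48 h against DMSO 24 h (-0.37).

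The 5 genes of deoxynucleotide supply held both extremes at 200 nM 24 h against DMSO 24 h. TYMS, thymidylate synthase (NCBI Gene ID 7298, chromosome 18 from 657604 to 673499 on hg19), makes dTMP from dUMP. It was 153 FPKM in DMSO, 88.2 at 100 nM and 38.4 at 200 nM at 24 h, and 102, 97.4 and 79.1 FPKM in the same order at 48 h. The 200 nM 24 h library held 25.1% of the DMSO value, a log2 fold change of -1.97, with a 95% interval for counting error alone of -2.06 to -1.87. It ranked 8 from the lowest of 11660 genes. At 48 h, all 3 libraries lay above the 200 nM 24 h value and below that of DMSO 24 h. TYMS overlaps 2 genes of the opposite strand, ENOSF1 by 3180 bases and TYMSOS by 737 bases, and the counting is not stated to use strand. ENOSF1 was between 7.46 and 10.6 FPKM and TYMSOS between 4.5 and 7.99 FPKM, both below TYMS in every library. TYMS, PCNA, RRM2, DUT, ORC1, RFC3, RFC5 and FEN1 have named pseudogene copies, among which the counting could split reads, so their levels are less certain.

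TK1, thymidine kinase, makes the same product by salvage of thymidine. It stood at 99.3 FPKM in DMSO, 92.0 at 100 nM and 109.7 at 200 nM after 24 h, and at 93.7, 94.96 and 85.9 FPKM after 48 h. It alone of the 45 genes was above DMSO 24 h at 200 nM 24 h, with a log2 fold change of 0.14 and a counting interval of 0.07 to 0.22. Against DMSO 48 h, 12 of 45 genes were above at 200 nM 24 h, as were 5983 of all 11710 genes. E2F2 (0.233) then lay above TK1 (0.226). Per length of transcript, TYMS was more abundant than TK1 in DMSO at both times and at 100 nM 48 h. TK1 was the more abundant at 100 nM 24 h and at 200 nM at both times. RRM1, the large subunit of ribonucleotide reductase, was 111 FPKM in DMSO, 91.8 at 100 nM and 60.5 at 200 nM at 24 h, and 83.4, 83.4 and 79.2 FPKM in the same order at 48 h. RRM2, its small subunit and the one made mainly in S phase, stood at 119 FPKM in DMSO, 94.0 at 100 nM and 70.2 at 200 nM after 24 h, and at 68.0, 61.9 and 58.4 FPKM after 48 h. Both were at least 1.5-fold lower at 200 nM 24 h (-0.87 and -0.75), but RRM2 in all 3 libraries of 48 h was also below its 200 nM 24 h value, and RRM1 in all 3 was above. DUT, which hydrolyses dUTP, was 39.2 FPKM in DMSO, 37.9 at 100 nM and 29.8 at 200 nM at 24 h, and 41.5, 30.9 and 36.4 FPKM in the same order at 48 h. Its fold change at 200 nM 24 h was -0.38 and did not reach 1.5-fold.

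**Figure D3:**
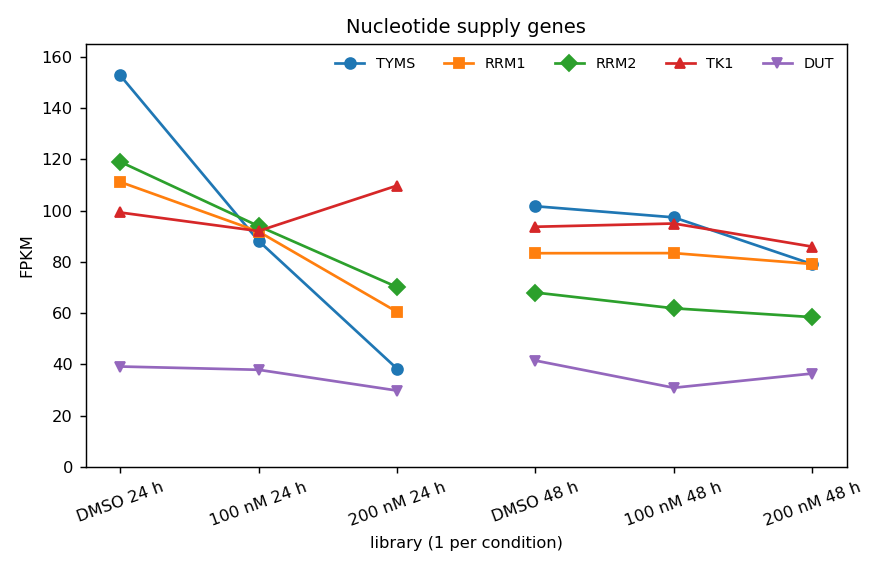
FPKM (vertical axis, from 0) of the 5 nucleotide supply genes in the 6 libraries (horizontal axis, 1 point per library), with lines joining the libraries of 1 time. TYMS runs from 153 down to 38.4 FPKM at 24 h while TK1 stays between 92.0 and 109.7 FPKM, and over the 48 h libraries TYMS runs only from 102 to 79.1 FPKM.

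Of the 11 helicase loading genes, all were below DMSO at 200 nM 24 h, and 5 were at least 1.5-fold lower, all of them MCM subunits. For this and each later role, the shares of all genes were 48.6% below DMSO and 7.58% at least 1.5-fold lower. These counts are against DMSO 24 h. Against DMSO 48 h, MCM5 and MCM6 alone of these roles were at least 1.5-fold lower at 200 nM 24 h, against 5.24% of all genes. MCM6 stood at 41.4 FPKM in DMSO, 33.7 at 100 nM and 20.2 at 200 nM after 24 h, and at 31.6, 28.6 and 33.3 FPKM after 48 h. MCM5 was 39.5 FPKM in DMSO, 30.9 at 100 nM and 19.2 at 200 nM at 24 h, and 35.9, 34.0 and 31.2 FPKM in the same order at 48 h. MCM4 stood at 41.2 FPKM in DMSO, 30.9 at 100 nM and 20.9 at 200 nM after 24 h, and at 25.1, 28.5 and 24.2 FPKM after 48 h. For MCM5 and MCM6, the 200 nM 24 h library was the lowest of the 6 and held 48.7% of the FPKM of DMSO 24 h. MCM3, the most abundant gene of this role, was 98.2 FPKM in DMSO, 91.6 at 100 nM and 60.2 at 200 nM at 24 h, and 78.0, 71.8 and 77.2 FPKM in the same order at 48 h. MCM7 stood at 86.7 FPKM in DMSO, 74.5 at 100 nM and 54.1 at 200 nM after 24 h, and at 71.4, 69.6 and 61.5 FPKM after 48 h. MCM2 was less different (-0.48), so 5 of the 6 ring subunits reached 1.5-fold at 200 nM 24 h. The loaders were at -0.39 for ORC1, -0.42 for ORC6, -0.32 for CDC6 and -0.26 for CDT1. ORC1 was 8.50 FPKM in DMSO, 7.19 at 100 nM and 6.24 at 200 nM at 24 h, and 5.69, 6.01 and 5.16 FPKM in the same order at 48 h. CDC6 stood at 58.7 FPKM in DMSO, 55.6 at 100 nM and 46.7 at 200 nM after 24 h, and at 43.8, 35.3 and 46.9 FPKM after 48 h. ORC1 was lower in each 48 h library, DMSO included, than at 200 nM 24 h, and CDC6 was lower in DMSO 48 h and 100 nM 48 h. GMNN, the inhibitor that keeps CDT1 from loading helicases again within S phase, was 0.17 above DMSO at 100 nM and 0.32 below at 200 nM. MCM7 shares 434 bases with AP4M1 on the opposite strand, which was between 7.09 and 9.73 FPKM.

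The 7 genes of helicase activation and fork passage had the lowest median of the roles at 200 nM 24 h (-0.76), close to that of nucleotide supply (-0.75), and 5 of 7 were at least 1.5-fold lower. This order of roles depended on the reference. Against DMSO 48 h their median was -0.20 with 0 of 7 at 1.5-fold, and nucleotide supply (-0.46), helicase loading (-0.30) and the regulators (-0.28) lay lower. CDC45, the activator that joins the ring with GINS, was 24.4 FPKM in DMSO, 18.9 at 100 nM and 12.3 at 200 nM at 24 h, and 16.9, 15.4 and 16.6 FPKM in the same order at 48 h. GINS2 stood at 23.9 FPKM in DMSO, 18.9 at 100 nM and 11.7 at 200 nM after 24 h, and at 17.6, 14.7 and 17.0 FPKM after 48 h. GINS3 was 9.49 FPKM in DMSO, 8.96 at 100 nM and 5.20 at 200 nM at 24 h, and 6.44, 5.58 and 6.55 FPKM in the same order at 48 h. The remaining GINS subunits differed less, at -0.35 for GINS1 and -0.43 for GINS4, so subunits of 1 complex ran from -0.35 to -0.98. GINS4 stood at 15.8 FPKM in DMSO, 12.8 at 100 nM and 11.4 at 200 nM after 24 h, and at 10.6, 9.86 and 9.42 FPKM after 48 h, and its lowest library was 200 nM 48 h. MCM10, a firing factor, was 14.3 FPKM in DMSO, 12.1 at 100 nM and 8.68 at 200 nM at 24 h, and 7.61, 7.55 and 7.73 FPKM in the same order at 48 h. CLSPN, the fork protein that carries the checkpoint signal to CHEK1, stood at 10.2 FPKM in DMSO, 8.34 at 100 nM and 5.22 at 200 nM after 24 h, and at 6.12, 5.05 and 5.74 FPKM after 48 h. MCM10 was lower in each 48 h library than at 200 nM 24 h, which set it apart from CDC45 and GINS2, whose lowest library was 200 nM 24 h.

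PCNA, the sliding clamp, was 128 FPKM in DMSO, 105 at 100 nM and 70.3 at 200 nM at 24 h, and 101, 100.2 and 95.5 FPKM in the same order at 48 h. It was 0.86 below DMSO at 200 nM 24 h. RFC3, a subunit of the loader that places it, stood at 24.4 FPKM in DMSO, 23.1 at 100 nM and 15.8 at 200 nM after 24 h, and at 15.8, 14.1 and 16.4 FPKM after 48 h. RFC2 (-0.29), RFC4 (-0.32) and RFC5 (-0.19) did not reach 1.5-fold. PCNA and RFC3 were thus the 2 of 5 clamp and loader genes that did. Among the 8 genes of polymerases and lagging strand synthesis, 3 reached 1.5-fold. LIG1, which joins Okazaki fragments, was 25.9 FPKM in DMSO, 19.0 at 100 nM and 14.9 at 200 nM at 24 h, and 20.3, 23.2 and 16.2 FPKM in the same order at 48 h. POLD3, an accessory subunit of polymerase delta, stood at 16 FPKM in DMSO, 14.9 at 100 nM and 9.69 at 200 nM after 24 h, and at 13.1, 12.4 and 11.9 FPKM after 48 h. POLE2, the second subunit of polymerase epsilon, was 22.3 FPKM in DMSO, 17.3 at 100 nM and 14.1 at 200 nM at 24 h, and 17.5, 14.9 and 14.6 FPKM in the same order at 48 h. For LIG1, POLD3 and POLE2, the lowest of the 6 libraries was 200 nM 24 h. FEN1, the flap nuclease and the most abundant of this role, stood at 75.2 FPKM in DMSO, 73.5 at 100 nM and 55.8 at 200 nM after 24 h, and at 63.3, 55.1 and 59.0 FPKM after 48 h. The other 4 of this role were also below DMSO, at -0.53 for POLE, -0.32 for POLA2, -0.32 for POLD1 and -0.13 for PRIM1.

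The 4 genes of chromatin at the fork were below DMSO at 200 nM 24 h, 2 of them by at least 1.5-fold. CHAF1B, of the chromatin assembly factor that places histones on new DNA, was 20.7 FPKM in DMSO, 18.9 at 100 nM and 11.8 at 200 nM at 24 h, and 14.6, 15.2 and 13.2 FPKM in the same order at 48 h. On the log2 scale it was 0.76 below DMSO at 200 nM 24 h, and its partner CHAF1A was 0.38 below. CHAF1A stood at 30.7 FPKM in DMSO, 30.4 at 100 nM and 23.3 at 200 nM after 24 h, and at 21.5, 20.6 and 18.8 FPKM after 48 h, lowest at 200 nM 48 h. UHRF1, which guides maintenance methylation to new DNA, was 38.6 FPKM in DMSO, 33.7 at 100 nM and 22.4 at 200 nM at 24 h, and 22.7, 21.1 and 20.3 FPKM in the same order at 48 h. ASF1B, a histone chaperone and the most abundant of this role, stood at 71.6 FPKM in DMSO, 59.6 at 100 nM and 52.3 at 200 nM after 24 h, and at 64.7, 69.3 and 63.5 FPKM after 48 h. UHRF1 was 0.76 below DMSO at 200 nM 24 h, and ASF1B was 0.45 below.

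Among the regulators, both cyclins E, E2F1, E2F2 and E2F8 were below DMSO at 200 nM 24 h, 2 of them by at least 1.5-fold. CCNE2, cyclin E2, was 24.1 FPKM in DMSO, 20.3 at 100 nM and 10.2 at 200 nM at 24 h, and 12.6, 9.24 and 12.6 FPKM in the same order at 48 h. E2F8, a repressor of E2F targets that is itself such a target, stood at 16.5 FPKM in DMSO, 13.3 at 100 nM and 7.94 at 200 nM after 24 h, and at 10.9, 9.97 and 11.4 FPKM after 48 h. E2F1, the activator, was 26.2 FPKM in DMSO, 25.01 at 100 nM and 17.4 at 200 nM at 24 h, and 22.7, 19.4 and 24.6 FPKM in the same order at 48 h. Its fold change of -0.57 lies just outside 1.5-fold (0.585 lower on this scale), and RFC3 at -0.60 lies just inside. CCNE1, cyclin E1, stood at 12.5 FPKM in DMSO, 12.0 at 100 nM and 9.0 at 200 nM after 24 h, and at 7.80, 8.60 and 9.33 FPKM after 48 h. It was 0.43 below DMSO at 200 nM 24 h, and its lowest library was DMSO 48 h. E2F2, the least abundant of the 45 genes at 2.59 to 3.9 FPKM, was 0.04 below. CCNE2 overlaps INTS8 by 270 bases on the opposite strand, and INTS8 was between 22.0 and 28.5 FPKM, so without strand the reads of the shared bases cannot be told apart.

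At 48 h, 0 of the 45 genes were 1.5-fold above or below DMSO at either dose. At 200 nM, 31 of 45 were below DMSO with a median of -0.07, where 0.463% of all genes were at least 1.5-fold lower, 1.53% higher, 48.6% were below DMSO and the median was 0.01. At 100 nM, 33 of 45 were below with a median of -0.07, where 1.75% of all genes were at least 1.5-fold lower, 0.504% higher, 52.4% were below DMSO and the median was -0.01. TYMS had the lowest value at 200 nM (-0.36), followed by LIG1 (-0.31) and CDT1 (-0.28). All 5 nucleotide supply genes were below DMSO at 200 nM 48 h, and none of the 5 regulators was, with 0.27 for E2F2 and 0.23 for CCNE1 at the top. Counting intervals held 0 for 24 of 44 genes at 200 nM 48 h and for 2 of 44 at 200 nM 24 h. These intervals cover counting error only and not differences between cultures. From 100 nM to 200 nM at 48 h, 21 of 45 were lower, against 47.8% of all genes, 0 of them by 1.5-fold, against 2.37% of all genes, and the median was 0.01. The order DMSO above 100 nM above 200 nM held for 13 of 45 genes at 48 h, against 11.3% of all genes.

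**Figure D4:**
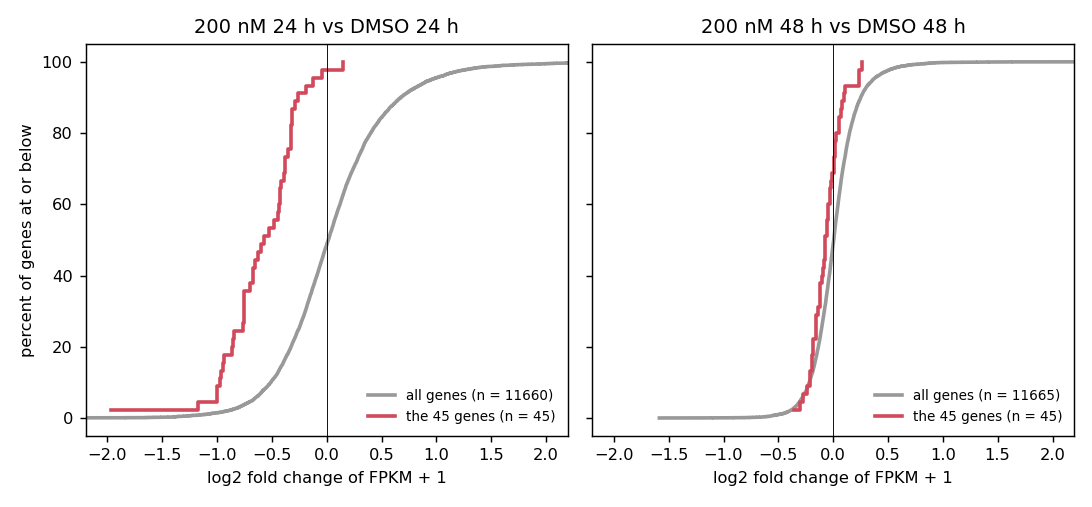
Percent of genes (vertical axis) with a log2 fold change of FPKM + 1 at or below the value on the horizontal axis, for the 45 genes and for all genes, 200 nM against DMSO at 24 h and at 48 h. The curve of the 45 genes lies far to the left at 24 h (median -0.57) and close to that of all genes at 48 h (median -0.07).

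DMSO itself differed between times. DMSO 48 h was below DMSO 24 h for 43 of 45 genes, the exceptions being CDT1 (0.21) and DUT (0.08), with a median of -0.37, against 50.2% of all genes and a median of 0.00. At least 1.5-fold lower were 8 of 45, against 1.94% of all genes, and 0 were higher, against 8.49% of all genes. The 8 were CCNE2 (-0.89), MCM10 (-0.83), RRM2 (-0.80), UHRF1 (-0.74), MCM4 (-0.69), CLSPN (-0.65), CCNE1 (-0.62) and RFC3 (-0.60). DMSO 24 h was the highest of the 6 libraries for 38 of 45 genes (84.4%) and for 25.8% of all genes. Over the 3 libraries of 24 h, the median gene of the 45 spanned 0.57 on the log2 scale. Over those of 48 h it spanned 0.19, with 24 h the wider for 41 of 45. The span was not computed for all genes, but their changes were also wider at 24 h. For 200 nM against DMSO of the same time, the quartiles of all genes were -0.25 and 0.31 at 24 h. At 48 h they were -0.11 and 0.12. Measured against DMSO 24 h, the treated libraries of 48 h were lower too. At 100 nM, 44 of 45 genes were lower (51.6% of all genes), with a median of -0.44, and 13 were at least 1.5-fold lower (2.62% of all genes) and 0 higher (6.88%). At 200 nM, 45 of 45 were lower (49.8% of all genes), with a median of -0.42, and 12 were at least 1.5-fold lower (5.19% of all genes) and 0 higher (12.3%). These comparisons share the DMSO 24 h library. For 20 of 45 genes, each 48 h library lay between 200 nM 24 h and DMSO 24 h, against 11.4% of all genes.

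A list of 72 other replication and nucleotide genes, which holds further origin, polymerase, folate and purine or pyrimidine synthesis genes, was described in the same way. At 200 nM 24 h, 58 of 72 were below DMSO, 21 were at least 1.5-fold lower and 1 was higher, with a median of -0.41. Of all genes, 48.6% were below DMSO, 7.58% at least 1.5-fold lower and 12.5% higher, with a median of 0.01. At 2-fold, the shares of all genes were 1.48% lower and 4.47% higher. The low dose at 24 h had a median of -0.13. At 48 h, the median was -0.06 for the low dose and -0.10 for the high dose. The genes at least 2-fold lower at 200 nM 24 h were CAD (-1.04), which starts pyrimidine synthesis, DONSON (-1.09) and MTBP (-1.01), which help origins fire, and SKP2 (-1.07), which marks CDT1 and the CDK inhibitor p27 for breakdown. CAD was 35.3 FPKM in DMSO, 23.6 at 100 nM and 16.7 at 200 nM at 24 h, and 19.5, 21.9 and 16.4 FPKM in the same order at 48 h. POLD4, the smallest subunit of polymerase delta, was the gene that was 2-fold higher (1.08). It stood at 10.5 FPKM in DMSO, 15.3 at 100 nM and 23.4 at 200 nM after 24 h, and at 24.0, 22.6 and 24.9 FPKM after 48 h. POLD4 thus ran against POLD3 of the same enzyme, and its DMSO 24 h value was the lowest of the 6 libraries. Set against DMSO 48 h instead, the 200 nM 24 h library differed by -0.04 for POLD4, -0.22 for CAD, -0.35 for DONSON, -0.51 for MTBP and -0.70 for SKP2, and the median of the 72 genes was -0.076. Of the treated libraries of 48 h set against DMSO 24 h, 100 nM was at least 2-fold lower for TIPIN (-1.13), which stabilises stalled forks, and CDC25A (-1.05), a phosphatase that activates cyclin-dependent kinases, and 200 nM was for CAD (-1.06). The shares of all genes at least 2-fold lower were 0.255% at 100 nM and 0.454% at 200 nM. TIPIN was 21.1 FPKM in DMSO, 18.6 at 100 nM and 13.2 at 200 nM at 24 h, and 12.0, 9.11 and 12.0 FPKM in the same order at 48 h. CDC25A stood at 9.46 FPKM in DMSO, 8.39 at 100 nM and 5.30 at 200 nM after 24 h, and at 4.82, 4.06 and 5.23 FPKM after 48 h. For both, DMSO 48 h was already below 200 nM 24 h.

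The stretch of 250 bases before each annotated start was searched for 4 motifs on both strands in the 39 of 45 genes found in the RefSeq promoter table. CCNE2, POLD3, MCM4, MCM5, E2F8 and GINS4 are not among them. All of these but GINS4 were at least 1.5-fold lower at 200 nM 24 h, so the absence falls mostly on lowered genes. An E2F match was present before a start of 16 of 39 genes (41.0%), of 3.4% of all 27305 genes in the table and of 5.77% of the 9803 with at least 1 FPKM in any library. The CCAAT box (CCAAT) was present in 23 of 39 (59.0%) against 42.0% of the expressed genes, the Sp1 box (GGGCGG) in 29 (74.4%) against 76.0%, and the cell cycle homology region (TTTGAA) in 3 (7.69%) against 11.7%. An Sp1 box and an E2F match can share letters. Genes at least 1.5-fold lower at 200 nM 24 h had an E2F match in 9 of 17, and the others had one in 7 of 22. The motif was thus more common before the replication genes than before other genes, and it was found both among the lowered genes and among the rest. TYMS, MCM6 and GINS2, the printed sequences with a match, were 1.97, 1.0 and 0.98 below DMSO, but so was CDC45 by 0.94 with no match, and E2F2, POLA2 and GMNN held a match and were 0.04, 0.32 and 0.32 below.

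**Figure D5:**
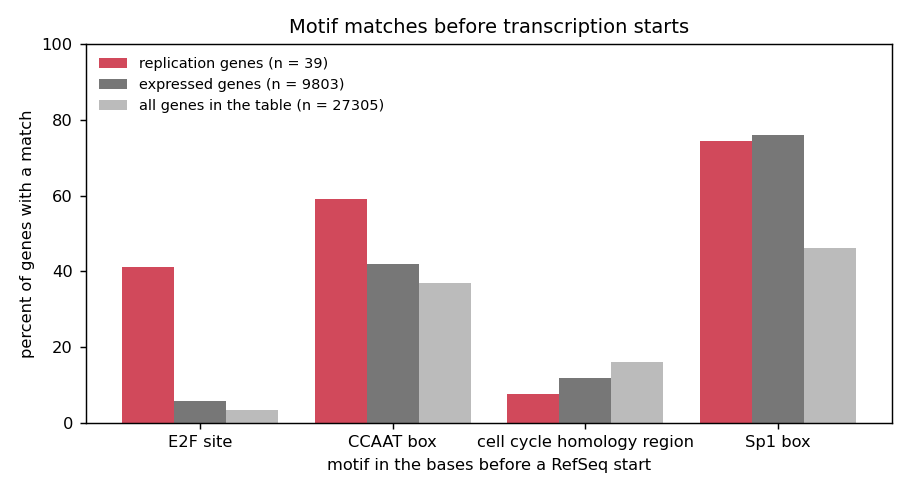
Percent of genes (vertical axis, from 0) with a motif match in the bases before any of their RefSeq starts, for the replication genes, the expressed genes and all genes in the table. The E2F site is the motif with the widest gap, 41.0% against 5.77% of expressed genes.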

How the data were processed

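RNA-seq of MDA-MB-231 cells gave 6 libraries, 1 per condition, grouped by their titles. The deposited FPKM values, 2 decimals per gene, were made by the authors. Their processing notes name Bowtie2, RSEM and hg19, with no version or role, and mRNA enrichment or rRNA depletion preceded sequencing. Strand use in counting is not given in the sources used here. Symbols were taken by NCBI Gene ID from RefSeq (GRCh38.p14), which held 16585 of 16623 genes.

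Differences in log2(FPKM + 1) were computed for genes with at least 1 FPKM in either library. A gene was called at 1.5-fold. The pseudocount of 1 understates changes of low genes. With 1 library per condition, no test was run. Genes were named by role, with values in all 6 libraries for those called and for the most abundant gene of each role, and from the other list those changed at least 2-fold in a comparison with DMSO. The 45 genes and the lists and alternatives were chosen with earlier results of these data known.

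Depth was inferred from steps of low values of single-transcript genes (GENCODE 29 lengths) and is approximate. Counting intervals (95%) used the shortest listed transcript of 44 genes, with half-widths on the log2 scale of 0.05 to 0.25 (median 0.12). They cover counting error only. The calling step was checked on simulated libraries with counting error only. Alternatives were pseudocounts of 0.1 and 0.01, other filters, TPM, median-of-ratios factors, a 2-fold threshold and the other DMSO library. The scripts ran in Python 3.11.15 with pandas 2.3.3 and numpy 2.4.6, and plots were drawn with matplotlib 3.10.9.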

Additional observations from a re-analysis of the deposited data

Results flagged for a closer look

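For 6 of the 22 genes at least 1.5-fold below DMSO at 200 nM 24 h, the 200 nM library was above DMSO at 48 h. At 200 nM 48 h, 14 of the 45 genes were above DMSO, as were 5947 of all 11665 genes. The same flag was not counted over all genes. MCM6 went from -1.0 at 24 h to 0.0725 at 48 h, CCNE2 from -1.17 to 0.0074, E2F8 from -0.97 to 0.0568, GINS3 from -0.76 to 0.0212, MCM10 from -0.66 to 0.02 and RFC3 from -0.60 to 0.0531, all as log2 fold changes. With 1 library per condition, the difference between the times was not tested. The counting intervals of all 6 values at 48 h hold 0, so the positive sign at 48 h is within counting error. The values rest on 2 DMSO libraries that differed from each other for these genes, by between -0.38 for MCM6 and -0.89 for CCNE2.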

How the results depend on the processing

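The choice of DMSO library moved the results most. Against DMSO 48 h, the 100 nM 24 h median of the 45 genes turned from -0.12 to 0.23, with 0 genes lower and 2 higher by 1.5-fold, and that of the 72 other genes became 0.17. The 200 nM 24 h median became -0.20, with 3 genes lower, and that of the other genes -0.076. Against DMSO 24 h, the medians were -0.44 at 100 nM 48 h (13 genes lower) and -0.42 at 200 nM 48 h (12 lower), and those of the other genes -0.33 and -0.44. A 2-fold threshold left 0 genes lower at 100 nM 24 h, 4 at 200 nM 24 h and 0 between the DMSO libraries. Pseudocounts of 0.1 and 0.01, other filters, TPM and median-of-ratios factors moved no median of the 45 genes by over 0.1 and no count by over 1.5 times. Of 720 values of single genes under the pseudocounts and scalings, 717 moved by at most 0.1 and 3 by more, CLSPN under both pseudocounts and GINS3 under 0.01, all at 200 nM 24 h and away from 0, by at most 0.12. Of these values, 10 changed sign, all with a size of at most 0.0292. No paired analysis was possible because the labels carry no replicate numbers and every group holds 1 library. A fit of dose plus time over the 6 libraries was not run, since it would count any difference between the times in the response to a dose as error. Counting half-widths ran from 0.05 to 0.25 between genes. They do not give the smallest difference detectable between conditions, since differences between cultures were not measured.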
